A study of Rattus norvegicus with 12 samples.

Results

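Growth factor ligands of the epidermal growth factor (EGF), hepatocyte growth factor (HGF), platelet-derived growth factor (PDGF) and fibroblast growth factor (FGF) families were followed in rat fibroblasts recovered from tumours. The 9 ligand genes were Areg, Ereg, Hbegf, Tgfa and Btc of the EGF family, Hgf, Pdgfa, and Fgf2 and Fgf7. They were read by every probe set to which the platform annotation gives 1 of these symbols alone, which made 10 of the 31042 probe sets tested and 9 of 14217 genes. Tumor cells were cultured from tumours that had formed in nude mice, taken 3 months after NA16 cells were injected under the skin. NA16 cells are F111 cells kept in suspension for 16 h. A16 cells are F111 cells, a Fischer rat fibroblast line, that grew attached to plastic for 16 h. Both groups were grown in fetal calf serum, of the same level in the labels but of a higher level for the tumour explants in the study's methods. Each group had 3 Affymetrix arrays, namely replicate 1, technical replicate 2 and replicate 2, and array values are given below in that order. The labels call replicates 1 and 2 biological. Technical replicate 2 was averaged with replicate 1, so n = 2 per group. The question was which growth signals that a cell could give to itself were gained or lost in the tumour-derived cells.

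The EGF family ligands are made as precursors anchored in the cell membrane. The protease ADAM17 cuts most of them free, and they bind the EGF receptor, some of them ErbB4 as well. HGF is a product of mesenchymal cells that is cleaved into its active form and binds the receptor MET. PDGF-A chains pair and bind PDGF receptor alpha, whereas FGFs bind FGF receptors together with heparan sulphate. All of these receptors are tyrosine kinases that feed the RAS and ERK cascade, and that cascade induces its own brakes, among them the DUSP phosphatases, the Sprouty proteins and the EGF receptor inhibitor Errfi1.

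The sequences before the start sites of the 4 ligand genes whose signal differed at least 2-fold are shown, since they are where transcription of these genes begins. They are the 250 bases upstream of the start annotated by RefSeq in the GRCr8 assembly, on the strand of the gene. Areg lies at chr14:17265642-17265891 (minus strand), Hgf at chr4:19700468-19700717 (minus strand), Hbegf at chr18:28390221-28390470 (minus strand) and Pdgfa at chr12:20759116-20759365 (plus strand). Capitals mark matches to the motifs searched.
Areg: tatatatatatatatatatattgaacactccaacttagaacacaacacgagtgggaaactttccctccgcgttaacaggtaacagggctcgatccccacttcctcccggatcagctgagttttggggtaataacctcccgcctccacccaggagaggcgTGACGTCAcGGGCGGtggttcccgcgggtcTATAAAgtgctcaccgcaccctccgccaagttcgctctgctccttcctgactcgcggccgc
Hgf: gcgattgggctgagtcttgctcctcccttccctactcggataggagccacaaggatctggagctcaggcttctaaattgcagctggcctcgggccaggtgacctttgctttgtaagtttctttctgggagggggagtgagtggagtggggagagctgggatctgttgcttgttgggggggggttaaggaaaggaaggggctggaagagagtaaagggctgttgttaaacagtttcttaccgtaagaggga
Hbegf: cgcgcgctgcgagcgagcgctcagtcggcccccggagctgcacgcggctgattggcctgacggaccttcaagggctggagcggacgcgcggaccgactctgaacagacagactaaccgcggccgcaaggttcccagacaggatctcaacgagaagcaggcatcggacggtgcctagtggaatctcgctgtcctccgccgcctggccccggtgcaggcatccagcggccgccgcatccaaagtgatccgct
Pdgfa: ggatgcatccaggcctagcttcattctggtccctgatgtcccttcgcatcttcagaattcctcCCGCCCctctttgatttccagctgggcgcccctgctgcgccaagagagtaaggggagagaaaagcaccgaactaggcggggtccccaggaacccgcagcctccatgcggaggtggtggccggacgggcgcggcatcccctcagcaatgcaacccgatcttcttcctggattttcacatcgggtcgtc
Both strands were searched for 7 motifs, and no match of one motif overlapped a match of another in the members. The cAMP response element (CRE) was searched as TGACGTCA and the AP-1 site as TGANTCA. For ETS factors the letters were CCGGAA, and for TEAD factors they were GGAATG. A GC box was GGGCGG and a TATA box was TATAAA. The core of the hypoxia response element was ACGTG. The Areg sequence held TGACGTCA at -91 to -84, GGGCGG at -82 to -77 and TATAAA at -61 to -56, counted back from -1 at the base before the start. Among 33469 promoters of the same length, 1.59% held the CRE, 30.5% the GC box and 12.9% the TATA box. The Pdgfa sequence held a GC box, on the minus strand, at -187 to -182. The Hgf and Hbegf sequences held none of these letters. Of the other members, Tgfa and Btc each had a GC box, and Fgf2 had ACGTG, which 16.6% of promoters had. Fgf7 had GGAATG and TATAAA, with GGAATG in 12.1% of promoters. Unlike those of the other members, the Tgfa and Fgf7 sequences did not end directly before the annotated start of the gene. AP-1 and ETS letters were in none of the 8 members with a sequence, and in 6.34% and 12.6% of all promoters. The GC content was 54.4% for Areg, 54% for Hgf, 67.6% for Hbegf and 60.8% for Pdgfa, beside a median of 51.2% over all promoters. A match is a description of letters and not of a bound site.

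The ligands did not move as 1 group. Among the 9 genes, 2 were higher in Tumor cells (Areg and Hgf), 2 were lower (Hbegf and Pdgfa), and 5 were not called, where a call is a Benjamini-Hochberg adjusted p under 0.05 over all probe sets in limma together with a fold of at least 2. Over all 14217 genes 5.45% were called higher and 5.44% lower, or 10.9% in either direction. With no minimum fold, 4 ligands passed the adjusted p with a higher value in Tumor cells (Areg, Tgfa, Hgf and Fgf7) and 3 with a lower one (Hbegf, Btc and Pdgfa), where 17.4% of all genes passed with a higher value and 16.6% with a lower one. The median log2 difference of the 9 genes was 0.12, beside 0.03 over all genes. Regardless of sign, the median size of the difference was 0.94 over the 9 genes by brightest probe set. Over all probe sets, dim and unnamed ones included, it was 0.244. Genes and probe sets are unlike units, so these sizes are not a direct contrast. The 3 Tumor arrays lay wholly on one side of the 3 A16 arrays for 8 of the 10 ligand probe sets, and the same held for 52.6% of all probe sets.

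**Figure D1:**
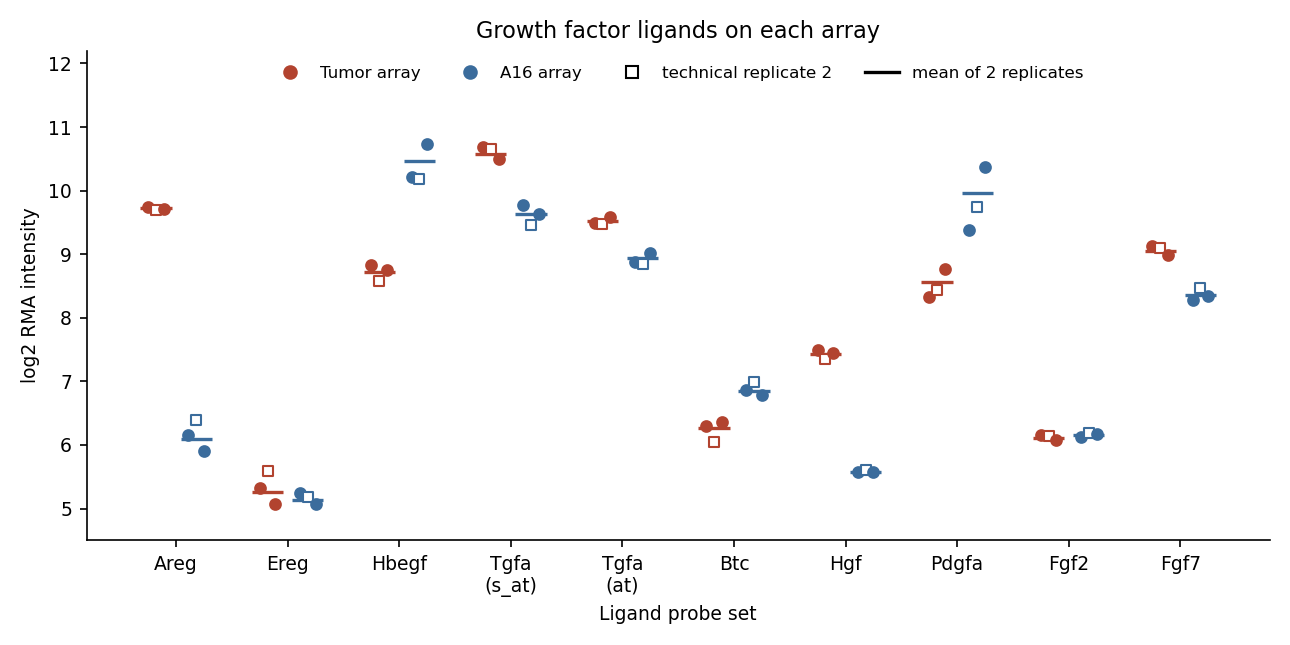
Log2 RMA intensity of the 10 ligand probe sets on each of the 3 Tumor and 3 A16 arrays, with open squares for technical replicate 2 and lines for the mean of 2 replicates. Areg lies near 9.72 on the Tumor arrays against 6.09 on the A16 arrays, Hgf is likewise apart, and Hbegf and Pdgfa lie lower on the Tumor arrays.

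Areg encodes amphiregulin, an EGF receptor ligand that many tissues induce during repair. Its log2 RMA intensity (probe set 1369871_at) was 9.75, 9.70 and 9.71 on the Tumor arrays and 6.16, 6.39 and 5.90 on the A16 arrays. Each Tumor array was at least 3 log2 units above each A16 array, and the Tumor arrays spanned 0.05 log2 units, against 0.49 for the A16 arrays. The means were 9.72 ± 0.01 in Tumor cells and 6.09 ± 0.27 in A16 cells (SD, n = 2 each). The log2 difference of 3.63 ± 0.15 (SE, limma) was 12.4-fold, with a 95% interval of 9.64 to 15.9-fold and an adjusted p of 2.61e-05. It was the largest difference among the ligands and the 75th highest rise of the 31042 probe sets. The A16 values stood between the 39.2 and 47.0 percentile of their arrays, near the middle of the range. Detection calls were not used here, so how far array background affects the fold is not known.

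Hbegf, heparin-binding EGF-like growth factor, binds both the EGF receptor and ErbB4 and went the other way. Its probe set 1368983_at had log2 intensities of 8.83, 8.58 and 8.75 on the Tumor arrays and 10.21, 10.18 and 10.73 on the A16 arrays. All Tumor arrays were below all A16 arrays, and A16 replicate 2 was the highest. The log2 difference was -1.74 ± 0.19 (SE; 95% interval -2.19 to -1.29), or 3.34-fold lower in Tumor cells (limma adjusted p = 0.000866). Without A16 replicate 2 it was -1.47, still past both thresholds.

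Tgfa, transforming growth factor alpha, binds the EGF receptor and is the ligand for which the platform has a pair of probe sets. The probe set 1381449_s_at had log2 intensities of 10.68, 10.65 and 10.49 on the Tumor arrays and 9.77, 9.46 and 9.64 on the A16 arrays. The groups did not overlap, and the log2 difference of 0.94 ± 0.12 (SE) was 1.93-fold, just under the fold threshold, with a limma adjusted p of 0.0016. The probe set 1387450_at had 9.49, 9.48 and 9.58 on the Tumor arrays and 8.87, 8.85 and 9.02 on the A16 arrays, again apart, with a log2 difference of 0.59 ± 0.12 (SE; 1.51-fold, limma adjusted p = 0.0105). Both probe sets were therefore higher in Tumor cells by less than 2-fold. Their mean gave 0.77 ± 0.11 (limma adjusted p = 0.000947). Without Tumor replicate 2 the first probe set gave 1.03, a call as higher.

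Btc encodes betacellulin, a ligand of the EGF receptor and ErbB4. Its log2 intensities (1387644_at) were 6.30, 6.05 and 6.36 on the Tumor arrays and 6.86, 6.99 and 6.78 on the A16 arrays. The groups did not overlap, but the difference of -0.59 ± 0.12 (SE) was only 1.5-fold (limma adjusted p = 0.0131), and it was not called. Ereg, epiregulin, a ligand of the same 2 receptors, had (1369587_at) 5.32, 5.59 and 5.07 on the Tumor arrays and 5.25, 5.18 and 5.07 on the A16 arrays. These overlapped, with a log2 difference of 0.12 ± 0.16 (SE), a limma adjusted p of 0.618 and a 95% interval from -0.26 to 0.50, which reaches a fold of 1.42 at its upper end. All 6 values lay between the 19.2 and 31.2 percentile of their arrays, where a low transcript and array background are hard to distinguish.

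Btc, Areg and Ereg are the 177th, 178th and 179th of 688 protein-coding genes in order along chromosome 14 in the GRCr8 annotation, next to one another. Their log2 differences were -0.59, 3.63 and 0.12 in that order. Of these 3 neighbours, Areg alone was called. Hgf and Tgfa are also on 1 chromosome, 4, but are not neighbours there.

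Hgf (probe set 1387701_at) had log2 intensities of 7.50, 7.35 and 7.44 on the Tumor arrays and 5.57, 5.60 and 5.58 on the A16 arrays. The replicates were close together in both groups and the groups were far apart. The means were 7.43 ± 0.02 in Tumor cells and 5.58 ± 0.00 in A16 cells (SD, n = 2 each), and the log2 difference of 1.85 ± 0.11 (SE) was 3.6-fold, with a 95% interval of 3.01 to 4.3-fold (limma adjusted p = 8.11e-05). It was the 531st highest rise. The Tumor values lay between the 58.8 and 60.3 percentile of their arrays, whereas the A16 values lay between 30.9 and 33.0, so the fold rests on a dim A16 signal. With PLIER values less their floor of 16 the difference was 3.32 on the log2 scale.

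Pdgfa (probe set 1370427_at) had log2 intensities of 8.32, 8.44 and 8.76 on the Tumor arrays and 9.38, 9.74 and 10.37 on the A16 arrays. The Tumor arrays were all lower, and the replicates of both groups were more scattered than those of Hgf, with means of 8.57 ± 0.27 in Tumor cells and 9.97 ± 0.58 in A16 cells (SD, n = 2 each). The log2 difference was -1.40 ± 0.27 (SE; 95% interval -2.06 to -0.74), or 2.63-fold lower in Tumor cells (limma adjusted p = 0.00943). This call depended on single replicates. Without A16 replicate 2 the difference was -0.99, under 2-fold, and without Tumor replicate 1 it was -1.20 with an adjusted p of 0.0614.

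The FGF ligands differed from each other. Fgf7, keratinocyte growth factor, is made by fibroblasts and acts on epithelial cells. Its log2 intensities (1369884_at) were 9.13, 9.09 and 8.98 on the Tumor arrays and 8.28, 8.47 and 8.34 on the A16 arrays, with no overlap. The log2 difference of 0.69 ± 0.11 (SE) was 1.61-fold (limma adjusted p = 0.00474), not a call. Fgf2, basic FGF, which leaves cells without a signal peptide, had (1387606_at) 6.15, 6.14 and 6.08 on the Tumor arrays and 6.12, 6.19 and 6.17 on the A16 arrays. The groups overlapped and the difference was -0.05 ± 0.11 (SE; 95% interval -0.31 to 0.21, limma adjusted p = 0.766).

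PLIER, the other probe summary of the same arrays, gave each of the 10 probe sets the same sign. By PLIER, Areg was 10.5-fold higher (adjusted p = 4.69e-05) and Hgf 4.96-fold higher (adjusted p = 0.000151) in Tumor cells, and Hbegf was 3.64-fold lower (adjusted p = 0.00186). Pdgfa differed by -1.36 on the log2 scale (adjusted p = 0.0141). The same 4 ligands were called by both summaries, and PLIER called 15.1% of all probe sets in either direction.

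**Figure D2:**
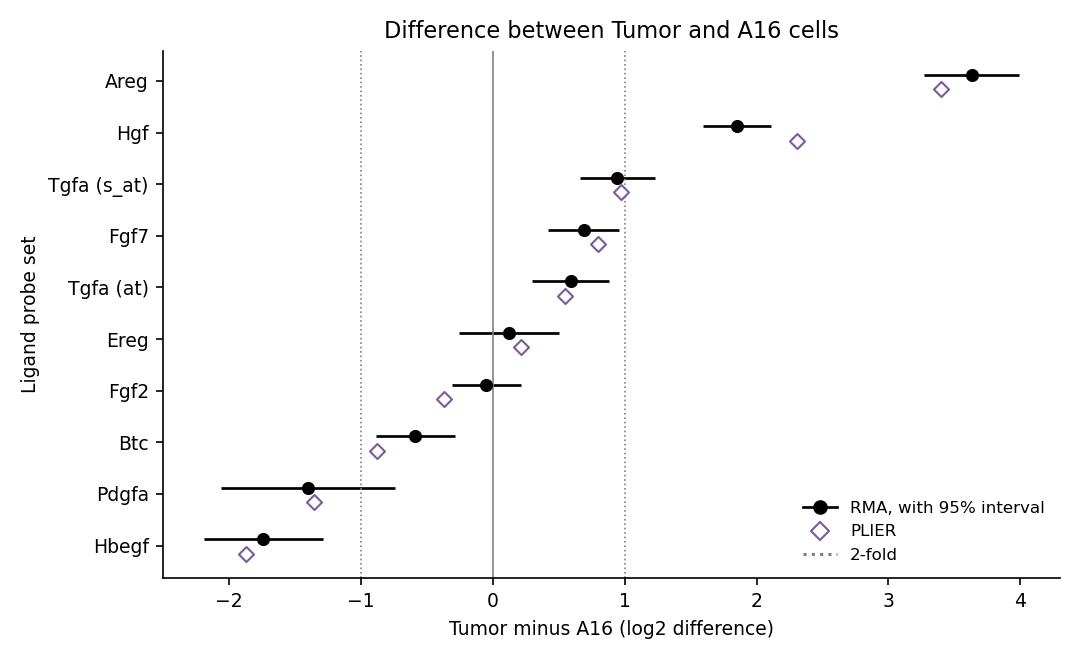
Log2 difference, Tumor minus A16, for each ligand probe set, as RMA points with 95% intervals and as PLIER diamonds, with dotted lines at 2-fold. The intervals of Areg and Hgf lie right of the 2-fold line and that of Hbegf left of it, the interval of Pdgfa spans it, and those of Ereg and Fgf2 span 0.

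The receptors that these ligands bind were mostly not separated. None of the receptors Egfr, Erbb2, Erbb3, Erbb4, Met, Pdgfra, Pdgfrb, Fgfr1 and Fgfr2 was called by its brightest probe set, and at an unadjusted p under 0.05 Erbb2 and Met alone passed. Egfr had log2 intensities of 8.33, 8.33 and 8.31 on the Tumor arrays and 8.29, 8.25 and 8.59 on the A16 arrays, which overlap, with a difference of -0.11 ± 0.14 (SE; 95% interval -0.45 to 0.23, limma adjusted p = 0.618). A dimmer Egfr probe set differed by 0.46 (adjusted p = 0.0333), so the sign depended on the probe set. Pdgfra, the receptor for PDGF-A, had 10.42, 10.47 and 10.30 on the Tumor arrays and 10.49, 10.51 and 10.37 on the A16 arrays, a difference of -0.06 ± 0.12 (SE; limma adjusted p = 0.763).

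Met, the HGF receptor, had log2 intensities of 7.28, 7.31 and 7.28 on the Tumor arrays and 7.83, 7.61 and 8.63 on the A16 arrays. All Tumor values were lower, but A16 replicate 2 stood above the other A16 arrays, and the difference of -0.89 ± 0.28 (SE) had a limma adjusted p of 0.0511. Its size depended on the A16 replicates, at -0.43 without A16 replicate 2 (not a call) and -1.34 without A16 replicate 1 (a call). By PLIER it was -1.02 (adjusted p = 0.0400), just past both thresholds. Fgfr3, another FGF receptor, was lower in Tumor cells. It had 5.55, 5.22 and 5.98 on the Tumor arrays and 7.70, 7.85 and 7.94 on the A16 arrays, a log2 difference of -2.18 ± 0.20 (SE; 4.52-fold, limma adjusted p = 0.000541), and its other probe set gave -1.43. The Tumor values of the brighter probe set lay between the 22.5 and 39.2 percentile of their arrays, which overlaps the dim range named for Ereg. The size of the fold is therefore uncertain, and PLIER values less their floor gave -2.69.

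**Figure D3:**
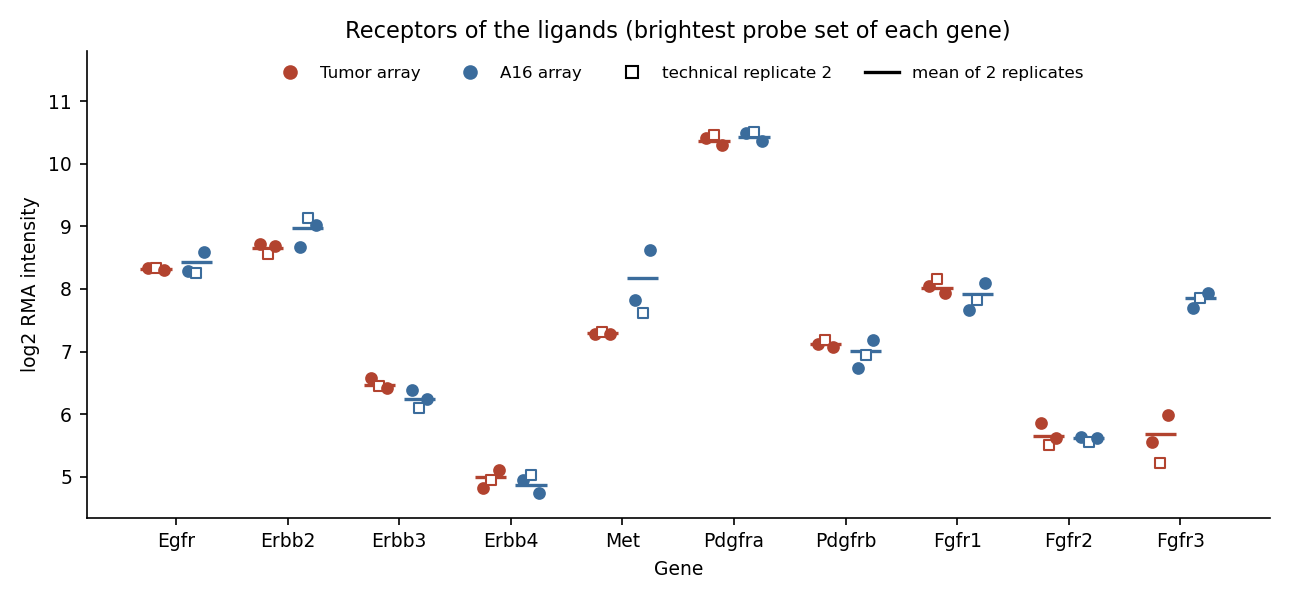
Log2 RMA intensity of the receptor genes (brightest probe set) on each Tumor and A16 array, with lines for the mean of 2 replicates. Fgfr3 is lower on all Tumor arrays, Met is lower with a wide A16 spread, and Egfr and Pdgfra overlap between the groups.

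The lists around the ligands held 73 further genes, and 66 of these were measured, while the other 7 were not analysed here. Of the 66, 7 were called higher in Tumor cells, 5 lower and 54 not called, with a median log2 difference of -0.01. Among the 4 measured EGF family ligands outside the 9 genes none was called by its brightest probe set (1 passed an adjusted p under 0.05 without the fold), and the release list of 4 genes gave no call by that measure either (1 passed without the fold). Dimmer probe sets of Nrg1 and Adam10, genes chosen after their values were seen, differed from the brightest ones here. Of the 8 for the neuregulin Nrg1, 1371212_at was called higher (1.45, limma adjusted p = 0.000483) and 1370607_a_at lower (-1.08, limma adjusted p = 0.0337). For the protease Adam10, 1370955_at was called lower (-1.47, limma adjusted p = 0.000604), whereas the brightest gave -0.28 (limma adjusted p = 0.200). Adam17 itself was 10.70 in Tumor cells and 10.52 in A16 cells on the log2 scale, a difference of 0.18 ± 0.11 (SE; limma adjusted p = 0.266). Egf, chosen after its value was seen, had 6.28, 6.29 and 6.14 on the Tumor arrays and 5.36, 5.15 and 5.39 on the A16 arrays, a difference of 0.89 ± 0.12 (SE; limma adjusted p = 0.00223) that was 1.85-fold. By PLIER it was 0.46 on the log2 scale, 1.37-fold, with an adjusted p of 0.0520. The A16 values lay between the 22.4 and 29.0 percentile of their arrays, within the range of the Ereg values. None of the 6 genes that activate HGF or inhibit that step was called, though 1 higher and 1 lower passed without the fold. Neither of the 2 measured PDGF ligands outside the members was called, though 1 passed as lower without the fold. That was Pdgfc, chosen after its value was seen (-0.91, limma adjusted p = 0.0185). By PLIER Pdgfc was -1.22 (limma adjusted p = 0.011), past both thresholds.

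Fgf1, acidic FGF, was the only 1 of the 10 measured FGF ligands outside the members to be called. It had log2 intensities of 6.55, 6.86 and 6.68 on the Tumor arrays and 8.13, 8.34 and 8.34 on the A16 arrays, 3.02-fold lower in Tumor cells (-1.60 ± 0.11, SE; limma adjusted p = 0.000172). All 3 of its probe sets were called lower. Of the 11 FGF receptors and coreceptors, 2 were called higher and 2 lower (Fgfr3 and Hspg2), and without the fold 2 passed as higher and 4 as lower. The syndecan Sdc1 and the glypican Gpc1 carry heparan sulphate at the cell surface and were higher, by 1.10 ± 0.11 and 1.25 ± 0.12 on the log2 scale (SE; limma adjusted p = 0.000675 and 0.000639). Other syndecans went the opposite way, as seen once their values were known. Sdc2 differed by -0.80 by its brightest probe set (limma adjusted p = 0.0029), which is not a call, and by -1.02 and -1.13 by its other probe sets, both called lower, and Sdc4 differed by -0.68 (limma adjusted p = 0.0279). The basement membrane proteoglycan Hspg2 was lower by -1.60 ± 0.29 (SE; limma adjusted p = 0.00732), with A16 values of 8.71, 9.02 and 9.84 that were again highest in replicate 2, and with PLIER values less their floor its adjusted p was 0.0653.

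The largest rises among these 66 genes, those of Dusp6, Errfi1 and Dusp5, were of EGF receptor inhibitors and ERK response genes. Errfi1, which blocks the EGF receptor kinase and is induced by its signalling, had 11.88, 11.75 and 11.83 on the Tumor arrays and 9.58, 9.60 and 9.26 on the A16 arrays. That is 5.26-fold higher in Tumor cells (2.39 ± 0.14 log2 units, SE; limma adjusted p = 8.37e-05), with no overlap. Socs5, which promotes EGF receptor breakdown, was 2.08-fold higher (1.05 ± 0.12, SE; limma adjusted p = 0.00123), and lost that call without A16 replicate 1 (0.97) or without Tumor replicate 1 (0.99). Lrig3 was lower by -1.31 ± 0.11 (SE; 2.48-fold, limma adjusted p = 0.000342). Cbl, a ubiquitin ligase for the EGF receptor, was chosen after its values were seen. It was not called by its brightest probe set (0.27, limma adjusted p = 0.18), but dimmer ones gave -1.02 and -1.37, both called lower.

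Of 16 measured ERK feedback and response genes, 3 were called higher and 1 lower, with a median log2 difference of 0.38. Dusp6, a phosphatase for ERK, had 12.33, 12.60 and 12.28 on the Tumor arrays and 9.42, 9.22 and 9.40 on the A16 arrays, 8.08-fold higher in Tumor cells (3.01 ± 0.12 log2 units, SE; limma adjusted p = 2.28e-05). Its probe sets disagreed in size, since 1377064_at gave 0.75 (adjusted p = 0.00304) and 1387024_at gave 0.21 (adjusted p = 0.600). Dusp5, the nuclear ERK phosphatase, had 11.10, 11.13 and 11.36 on the Tumor arrays and 8.91, 8.92 and 9.14 on the A16 arrays, 4.63-fold higher in Tumor cells (limma adjusted p = 0.00012). The Tumor and A16 arrays of Dusp5 and of this Dusp6 probe set did not overlap.

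Ccnd1, the cyclin of the G1 phase, was 2.67-fold higher in Tumor cells (1.42 ± 0.11, SE; limma adjusted p = 0.000284). Etv5, a transcription factor downstream of FGF signalling, was 3.19-fold lower by its brighter probe set (-1.67 ± 0.27, SE; limma adjusted p = 0.00462), whereas the other probe set gave 0.53 (adjusted p = 0.0123), so its direction is not settled. Its relative Etv1 was chosen after its values were seen. By its brightest probe set Etv1 was not called (-0.40, limma adjusted p = 0.0995), but 1392555_at was called higher (1.07). Chosen after their values were seen, Spry2 (0.90), Ier3 (0.87) and Myc (0.60) were higher in Tumor cells at adjusted p under 0.05 but under 2-fold, and Spry1 was lower (-0.64).

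**Figure D4:**
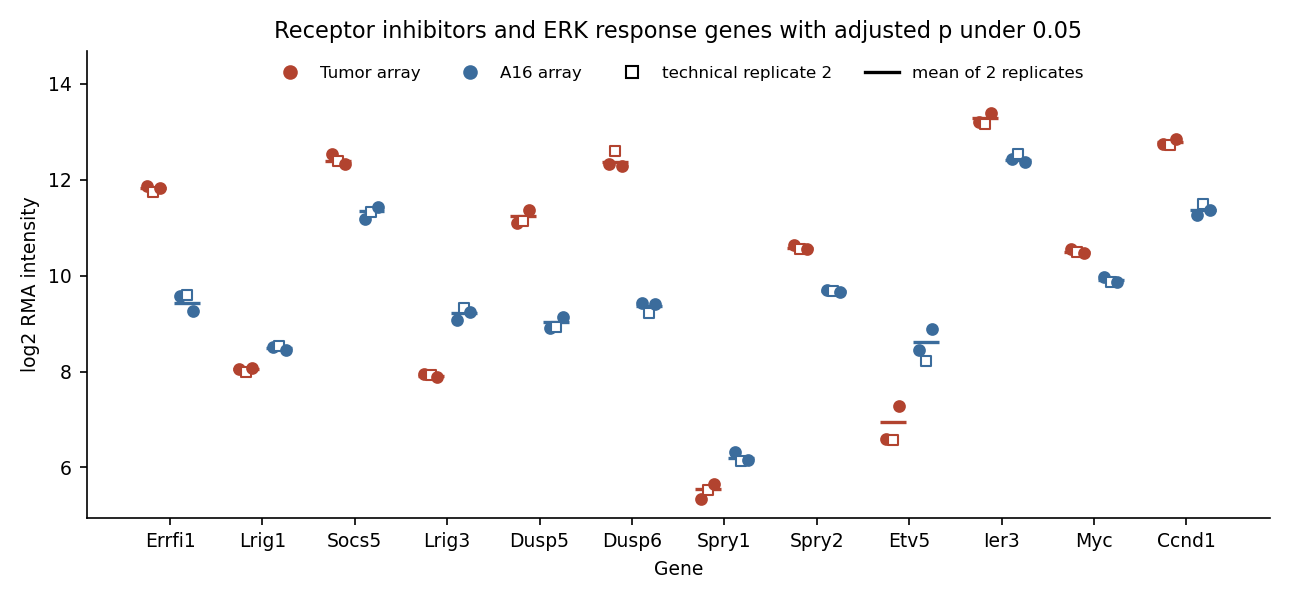
Log2 RMA intensity of the EGF receptor inhibitors and ERK response genes that passed an adjusted p under 0.05, on each Tumor and A16 array, with lines for the mean of 2 replicates. The Tumor means of Errfi1, Dusp5 and Dusp6 lie 2 or more log2 units above the A16 means, and Lrig1, Lrig3, Spry1 and Etv5 lie lower on the Tumor arrays.

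The groups also differed in ways other than the ligands. Summed linear RMA of the 8 fibroblast markers was 51751.4 to 53331.6 on the Tumor arrays and 80210.6 to 88453.9 on the A16 arrays. Col1a1, Col1a2, Thy1 and Fn1 were called lower. The other 4 were not called, with log2 differences of -0.06 for Col3a1, -0.10 for Vim, 0.24 for S100a4 and 0.10 for Pdgfrb. A linear sum gives most weight to the brightest markers. The 7 epithelial markers summed to 2219.8 to 2452.3 on the Tumor arrays and 931.5 to 1053.3 on the A16 arrays. Krt8 alone was called (higher by 1.50), and 6 of 7 were below the array median on every array. Without the fold 2 epithelial markers passed as higher, Krt8 and Cdh1 (0.93, limma adjusted p = 0.00169). By PLIER Cdh1 was past the fold as well (1.44, limma adjusted p = 0.00071). The 8 macrophage and leukocyte markers summed to 1557.2 to 1632.1 on the Tumor arrays and 1217.7 to 1345.0 on the A16 arrays, with Csf1r (3.14) and Cd68 (1.07) called higher and 5 of 8 below the median on every array, Ptprc and Adgre1 among them. Endothelial and muscle or adipocyte markers had no call at the 2-fold threshold, although 2 of the 5 endothelial and 3 of the 6 muscle or adipocyte markers passed an adjusted p under 0.05. Cells of the nude mouse host were not separated from the explants by any step that the sources give, and a change in cell mix and a change in RNA per cell cannot be told apart in bulk RNA. The part of these markers in the ligand differences was not tested.

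Array controls moved with the groups too. The bacterial poly-A spikes averaged 4.82 to 4.92 on the log2 scale on the Tumor arrays and 7.51 to 7.99 on the A16 arrays. For beta-actin, the 3′ probe sets were brighter than the 5′ probe sets by 2.25 to 2.37 log2 units on the Tumor arrays and by 0.64 to 0.71 on the A16 arrays. For Gapdh the same difference was 0.25 to 0.33 on the Tumor arrays and -0.05 to 0.00 on the A16 arrays. For hexokinase it was 1.83 to 2.30 on the Tumor arrays and 0.84 to 1.39 on the A16 arrays. The size of this shift thus depended on the gene. RNA quality and labelling therefore cannot be told apart from group. Array values correlated at 0.991 to 0.997 within a group and at 0.933 to 0.949 between groups.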

How the data were processed

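Total RNA of F111 rat fibroblasts was labelled with biotin and hybridised to Affymetrix rat arrays. The 12 records are 6 arrays, each with an RMA and a PLIER summary, so an array was counted once. Per the study's methods, scans were processed in GCOS and normalised in Avadis. RMA and PLIER come from the submitters' processing notes, with versions not given in the sources used here. Intensity on a linear scale is what the authors deposited, and log2 was taken of them here, although the plan had assumed log2 values. RMA medians were 98.0 to 100.1 on the 6 arrays. PLIER values had a floor of 16. Precision is limited by the number of arrays.

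Of 31099 probe sets, 31042 were tested and the 57 array controls were left out. A single symbol was available for 20826 of all probe sets (20758 of these in the RefSeq table), more than 1 for 436 and none for 9780. A gene was represented by its brightest probe set over all arrays.

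Technical replicate 2 carries no biological number and was averaged with replicate 1. The labels call replicates 1 and 2 biological but do not say whether they are separate cultures or animals. The p-values therefore measure the spread between these samples, which may be technical. Tumor was compared with A16 with limma 3.58.1 in R 4.3.3 (lmFit, eBayes, two-sided, Benjamini-Hochberg over 31042 probe sets). A call needed an adjusted p under 0.05 and a fold of at least 2. The fit was tested on simulated data. The text names every probe set of the ligands, called genes of the pathway lists, the receptors and Adam17, and other genes are said to be chosen after their values were seen. The members and the lists were chosen with earlier results of these data known. Promoters were taken from RefSeq (GRCr8), with an entry for 8 of the 9 members. Alternatives were PLIER with and without its floor, the handling of technical replicate 2, a replicate block, leaving out replicates, a dim filter, a second quantile normalization, no minimum fold, the mean of probe sets and the methods' t-test.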

Additional observations from a re-analysis of the deposited data

How the results depend on the processing

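The probe sets of the ligands kept their direction and call in 129 of 139 comparisons with an alternative. Leaving out 1 replicate gave 3.44 to 3.82 for Areg, 1.84 to 1.86 for Hgf, -2.01 to -1.47 for Hbegf, -1.80 to -0.99 for Pdgfa, 0.86 to 1.03 for the Tgfa probe set 1381449_s_at and -0.07 to 0.32 for Ereg, which turned negative without Tumor replicate 1. Btc was called lower (-1.31) with PLIER values less their floor. The methods' t-test, on 2 replicates a group, called no ligand after Benjamini-Hochberg (Areg 3.63, adjusted p 0.0754; Hgf 1.85, 0.0507; Hbegf -1.74, 0.13; Pdgfa -1.40, 0.235), which left 0 ligands higher and 0 lower, 4 and 8 of all probe sets, and 0 and 0 of the 75 pathway genes. Unadjusted, it called 2 ligands higher and 1 lower (Hbegf; Pdgfa at -1.40 missed) and 4 pathway genes lower. With no minimum fold 4 ligands were higher, as were 5047 probe sets, with 4832 lower, and 17 and 15 pathway genes. Leaving out 1 replicate called 2 to 3 ligands higher and 1 to 2 lower. PLIER gave 11 pathway genes lower, and PLIER less its floor 3113 probe sets higher. Fits of limma without a replicate leave 1 sample in that group, assumed to vary like the other. Genes named from the lists that turned sign were uncalled: Egfr (-0.27 to 0.05 over left-out replicates), Pdgfra (-0.13 to 0.01), Pdgfrb (-0.07 to 0.27), Fgfr1 (-0.08 to 0.27) and Fgfr2 (-0.02, quantile normalization again). Replicate numbers are shared across groups, but nothing says that they mark a batch, and the pairs' deviations correlated at 0.12, so the block stands here only: it changed no ligand call and called 1715 probe sets higher and 2035 lower. A dim filter removed Ereg. The dim A16 signal of Hgf, A16 values of Areg somewhat below the array median, and 2 replicates a group limit precision.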
